A study of Mus musculus with 20 samples.

Results

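Transcript levels in the extensor digitorum longus (EDL), a fast muscle of the mouse hindlimb, were compared between animals given Scriptaid and animals given vehicle, in the leg that carried an empty viral vector. The comparison takes 10 of the 20 arrays of the study, 5 animals against 5, chosen by their vector and treatment labels. All animals were male C57Bl6 mice that received an intramuscular injection of a recombinant adeno-associated virus of serotype 6 at an age of 8 weeks, aimed at the soleus and the EDL, in a volume of 30 µL. The vehicle group had the empty vector in the left leg and, 4 weeks later, an intraperitoneal injection of 5% dimethyl sulfoxide (DMSO) in phosphate-buffered saline. The Scriptaid group had the same empty vector in the left leg and an intraperitoneal injection of Scriptaid after the same interval. Its sample titles say vehicle, whereas its treatment entry, its description and its animal identifiers say Scriptaid, and the latter were followed. The dose of Scriptaid, and the time from the injection to the collection of the muscle, are not given in the sources used here, so the values describe the muscle at 1 unstated time. In the same animals the right leg carried vectors for D832N HDAC4 and D861N HDAC5, 2 dominant negative mutants, at 2.5e+10 vector genomes each. The 10 arrays of the right legs, 5 animals per treatment, were used here as a second set of arrays: they share every animal with the left legs but no array, and they differ from the left legs in the vector.

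Scriptaid is a hydroxamate inhibitor of histone deacetylases (HDACs), enzymes that take acetyl groups off lysines of histones and of other proteins. In muscle, the class IIa enzymes HDAC4 and HDAC5 bind the transcription factors of the MEF2 family and hold down their target genes, and exercise drives them out of the nucleus. The study's title asks whether HDAC inhibition repeats part of the response of muscle to exercise. Glucocorticoids, the stress steroids of the adrenal cortex, act in the same tissue through the glucocorticoid receptor NR3C1, which enters the nucleus and binds short palindromic DNA elements. Its known targets in muscle include the chaperone Fkbp5, the transcription factor Klf15 and genes of protein breakdown.

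The gene list with the most members near the top of the comparison was that of glucocorticoid-responsive genes. The lists and their members were chosen with earlier results of these data known. For some members of that list the 250 bases before the transcription start were read from RefSeq (build GRCm38.p6). The first start listed for each gene was taken. A promoter was matched for 12 of the 14 tested members. The half-site of the glucocorticoid receptor element, AGAACA or TGTTCT on the other strand, was in 0 of these 12, against 16.2% of all 27025 promoters searched in the same way. The full palindrome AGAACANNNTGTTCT was in 0 of the 12 and in 1 of all. The core of the metal response element, TGCACNC or TGCGCNC on either strand, was in 6 of the 12, against 21.3% of all. A match is a run of letters and not a shown binding site, and elements outside these 250 bases were not searched. The core was also in 1 of 10 matched promoters of the leading higher genes described below, and in 2 of 10 of the leading lower genes. The promoters of Mt2 and Mt1, neighbouring genes for metallothioneins, which bind zinc and copper, are shown with matches of that core in capitals. Mt2 holds 3 matches and Mt1 holds 1 match. Klf15, Ddit4, Glul and Pik3r1 of the same list also hold 1 match each and are not shown. The promoters of Mt2 and Mt1 are followed by those of Arrdc2 and Fkbp5, the list's members of smallest p, which hold none of the 3 motifs.
Mt2 (chr8:94172368-94172617, plus strand): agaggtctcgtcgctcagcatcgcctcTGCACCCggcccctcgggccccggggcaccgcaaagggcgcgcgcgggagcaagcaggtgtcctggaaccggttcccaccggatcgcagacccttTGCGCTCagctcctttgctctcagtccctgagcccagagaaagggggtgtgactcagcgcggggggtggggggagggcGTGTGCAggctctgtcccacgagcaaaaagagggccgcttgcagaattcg
Mt1 (chr8:94178839-94179088, plus strand): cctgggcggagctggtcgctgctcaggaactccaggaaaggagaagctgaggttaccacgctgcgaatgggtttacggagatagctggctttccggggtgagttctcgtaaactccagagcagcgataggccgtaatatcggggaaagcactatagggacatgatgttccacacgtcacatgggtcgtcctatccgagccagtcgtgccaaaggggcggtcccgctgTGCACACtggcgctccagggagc
Arrdc2 (chr8:70839721-70839970, minus strand): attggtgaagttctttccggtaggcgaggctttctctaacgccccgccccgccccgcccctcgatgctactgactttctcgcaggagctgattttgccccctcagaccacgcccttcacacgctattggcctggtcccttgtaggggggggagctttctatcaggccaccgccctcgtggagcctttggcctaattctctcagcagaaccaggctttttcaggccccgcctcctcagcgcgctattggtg
Fkbp5 (chr17:28486150-28486399, minus strand): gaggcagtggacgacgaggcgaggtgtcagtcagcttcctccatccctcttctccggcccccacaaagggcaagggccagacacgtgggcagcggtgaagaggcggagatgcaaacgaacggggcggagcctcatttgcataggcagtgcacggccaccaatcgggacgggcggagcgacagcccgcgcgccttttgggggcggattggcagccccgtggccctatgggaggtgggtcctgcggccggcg

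Levels are log2 of the processed intensity minus the log2 of the array's own 75th percentile, so that 0 is the 75th percentile and 1 unit is a doubling. The 75th percentile was 379 to 544 intensity units on the vehicle arrays and 372 to 608 on the Scriptaid arrays (two-sided exact permutation test, p = 0.778). Spots above background made up 51.7% to 59.9% and 54.3% to 60.1% (exact permutation p = 0.373). In a check of the labelled tissue, the fast myosins Myh1, Myh2 and Myh4 were saturated on every left-leg array with a usable spot, so no fold is given for them. Arrays are numbered by the replicate number of the labels, and arrays of the same number share a slide. Array 1 of the vehicle group stood apart in several markers of other cells. Its 3 measured neutrophil markers summed to 91.6 times the 75th percentile, against 0.17 to 0.96 on the other vehicle arrays and 0.66 to 1.90 on the Scriptaid arrays. Vehicle arrays 1 and 2 were highest in slow-fibre and tendon genes, and vehicle array 5 had 0.932% of its interior spots far below the other arrays, against 0.016% to 0.058% on the rest of its group. Values without single arrays, or without vehicle arrays 1 and 2 together, are given beside results that rested on them. In bulk muscle, fewer cells of a type and less RNA per cell cannot be told apart.

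No gene passed the test. Of 13940 genes, 0 (0%) had an adjusted p under 0.05 in limma with Benjamini-Hochberg adjustment, and the smallest adjusted p was 0.643. At an unadjusted p under 0.05 there were 637 genes (4.57%), and 339 of them (2.43%) were higher and 298 (2.14%) lower with Scriptaid. With the slide as a block, since the arrays of 1 replicate number share a slide, 0 genes passed, the smallest adjusted p was 0.686, and 6.18% of genes had an unadjusted p under 0.05. The 2 groups did not overlap for 156 genes (1.12%), of which 110 (0.789%) were higher and 46 (0.33%) lower with Scriptaid. The split between higher and lower moved with the scaling: 53.2% of the 637 were higher here, 68.8% with arrays centred on their median, 42.9% with the percentile taken over spots above background on all arrays, and 77.5% with the authors' deposited table of ratios put on the log2 scale. A difference above 0 was found for 54.1% of genes, and the median difference over all genes was 0.02. The median half-width of a gene's 95% interval, with no adjustment for the number of genes, was 0.376 (0.242 at the 10th percentile of genes, 0.838 at the 90th). In the right legs, 0 of 13802 genes passed either (0%; smallest adjusted p in limma 0.196), with 798 (5.78%) at an unadjusted p under 0.05, of which 545 (3.95%) were higher and 253 (1.83%) lower with Scriptaid. There 58.6% of all genes had a difference above 0.

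The genes described next were picked by their p in the left legs, so those values are a description. The right legs give values from other arrays, which the choice did not use. They come from the same animals and slides, so a difference between the animals can recur there. They are thus not an independent repeat of the left legs. The 12 genes of smallest p that were higher with Scriptaid included Map3k6, a stress-activated kinase, Arrdc2, an arrestin-domain protein, Fkbp5, a co-chaperone of steroid receptors, Plin4, a coat protein of lipid droplets, Lrg1, a secreted glycoprotein, and Fam107a, a stress-induced actin-binding protein. Their differences lay between 0.51 and 1.76, with adjusted p of 0.643 to 0.746 in limma. The groups did not overlap for 10 of the 12, against 0.789% of all genes in that direction. Of the 12, 11 were higher on all 5 slides, as were 4.89% of all genes. Both counts follow in part from the choice by p. In the right legs all 12 were above 0, with a median difference of 0.58, and 8 of the 12 had an unadjusted p under 0.05, against 3.95% of all genes in that direction. None of these 8 passed adjustment in the right legs (smallest adjusted p in limma 0.300).

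Map3k6 was at 1.30, 1.95, 1.71, 1.28 and 1.46 on the vehicle arrays and at 2.75, 2.41, 2.55, 2.25 and 2.38 on the Scriptaid arrays. Every Scriptaid array was above every vehicle array, by a mean of 0.93 ± 0.15 (SE; 1.91-fold), and the right legs differed by 0.83 ± 0.16. Arrdc2 was at 0.82, 1.42, 1.40, 0.56 and 1.32 with vehicle and at 2.13, 2.44, 2.18, 1.87 and 2.46 with Scriptaid. Its groups did not overlap either, with a difference of 1.11 ± 0.20 (2.16-fold) in the left and 1.20 ± 0.22 in the right legs. Fkbp5 was at -1.09, -0.99, -1.18, -1.63 and -1.85 with vehicle and at 0.17, -0.39, -0.40, -0.34 and -0.56 with Scriptaid. The lowest Scriptaid array was above the highest vehicle array, the difference was 1.04 ± 0.20 (2.06-fold), and the right legs gave 1.14 ± 0.19. The 2 other Fkbp5 probes gave differences of 0.82 and 1.1, and the other Map3k6 probe gave 0.74. Fam107a had the largest difference of the 12 and also a wide spread: -2.09, -3.38, -3.14, -2.88 and -4.41 with vehicle against -1.54, -0.94, -1.16, -2.09 and -1.38 with Scriptaid. Its lowest Scriptaid array equalled its highest vehicle array to 2 decimals, and the difference was 1.76 ± 0.38 in the left and 1.07 ± 0.17 in the right legs.

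The other 8 of the 12 were Slc4a8, a bicarbonate transporter (0.63 ± 0.10), Plin4 (0.68 ± 0.13, with 4 vehicle arrays), Epb4.1l5, a band 4.1 protein of the cell cortex (0.51 ± 0.10), Pard6b, a polarity protein (0.95 ± 0.19), Phf15, now named Jade2, a subunit of an acetyltransferase complex (0.65 ± 0.13), Lrg1 (0.68 ± 0.14), Pkp4, a plakophilin of cell junctions (0.63 ± 0.13), and Ankrd33b, an ankyrin-repeat protein (0.58 ± 0.13). Of these, Slc4a8, Epb4.1l5, Pard6b and Phf15 had right-leg differences of 0.23, 0.35, 0.39 and 0.51 whose unadjusted p was above 0.05. Epb4.1l5 and Pard6b were dim: each was above background on all 5 Scriptaid arrays but on only 2 of the 5 vehicle arrays, so they entered through the group where they were high, and their vehicle levels and differences are uncertain. Without these 2, the groups did not overlap for 9 of the other 10, and 8 of those 10 had an unadjusted p under 0.05 in the right legs. The probes of Slc4a8 and Ankrd33b differed in size: a second Slc4a8 probe, above background on all 10 arrays, gave 0.37, and the other Ankrd33b probes gave 0.34, 0.57 and 1.82. The other Pkp4 probe gave 0.65. Slc4a8 was the tightest of the group on the vehicle arrays, from -1.07 to -0.89, with the Scriptaid arrays from -0.56 to -0.10.

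**Figure D1:**
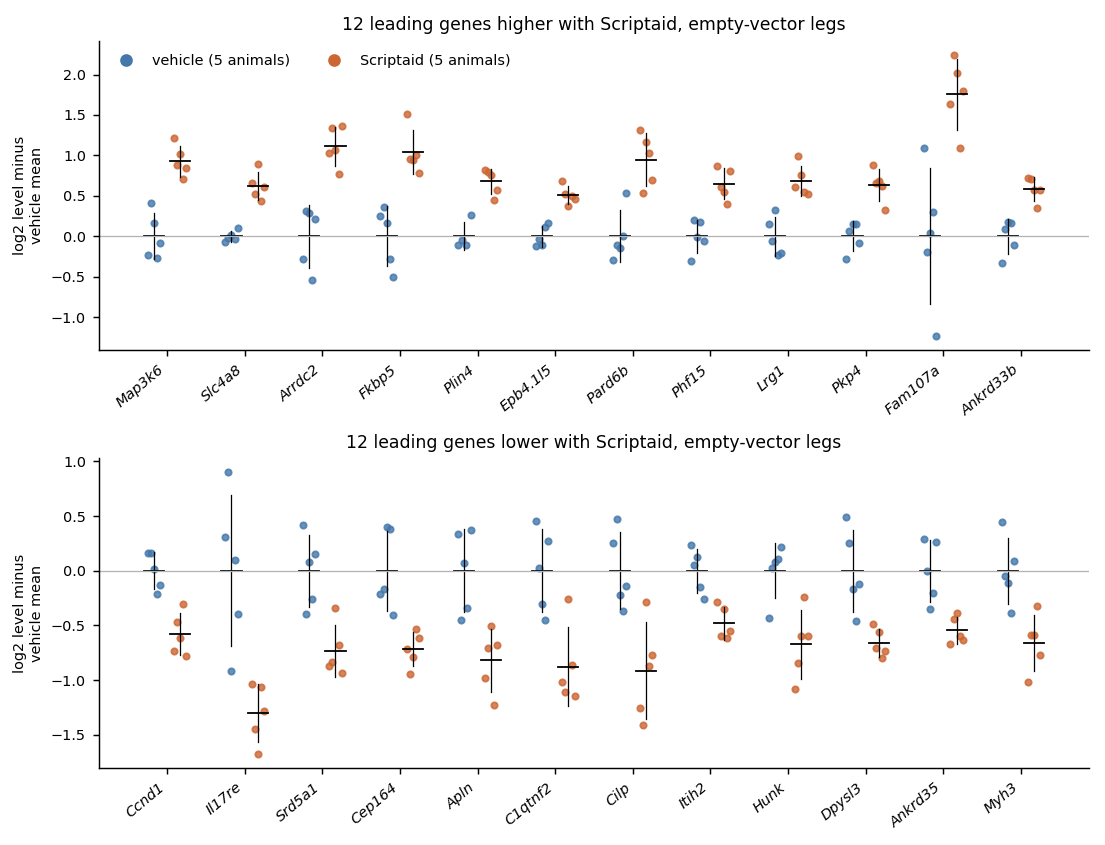
Level on each empty-vector array, as log2 minus the vehicle mean of the gene (y axis), for the 12 leading higher and the 12 leading lower genes (x axis, ordered by p). Points are arrays (5 animals per group, fewer where a spot was left out), horizontal bars are means and vertical bars SD. The groups do not overlap for 10 of the 12 higher genes (0.789% of all genes) and 7 of the 12 lower genes (0.33%). No gene passed adjustment.

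The 12 genes of smallest p that were lower with Scriptaid had differences of -0.48 to -1.30, with adjusted p of 0.746 to 0.830 in limma. Among them were Ccnd1, the cyclin of the first gap phase, Apln, a secreted peptide that acts on vessels, Dpysl3, a protein of axon growth, and Cilp, a matrix protein of cartilage and tendon. The groups did not overlap for 7 of the 12, against 0.33% of all genes in that direction. Of the 12, 10 were lower on all 5 slides, as were 2.92% of all genes. These counts too follow in part from the choice by p. In the right legs 10 of the 12 were below 0, with a median of -0.28, and 4 of the 12 (Ccnd1, Apln, Cilp and Hunk) had an unadjusted p under 0.05, against 1.83% of all genes in that direction. With single right-leg arrays left out this count of 4 ran from 1 (without vehicle array 1, vehicle array 5 or Scriptaid array 1) and 2 (without vehicle array 2, Scriptaid array 4 or Scriptaid array 5) to 5.

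Ccnd1 was at 0.51, 0.51, 0.37, 0.13 and 0.22 with vehicle and at -0.39, -0.12, -0.26, 0.04 and -0.44 with Scriptaid. No Scriptaid array reached a vehicle array, and the difference was -0.58 ± 0.13 in the left and -0.47 ± 0.19 in the right legs. Apln was at 0.50, -0.29, 0.23, -0.18 and 0.54 with vehicle and at -0.82, -0.54, -0.34, -1.07 and -0.52 with Scriptaid. Again no array of one group reached the other, with -0.82 ± 0.20 in the left and -0.90 ± 0.38 in the right legs. Cilp was at 2.6, 2.82, 2.13, 1.98 and 2.21 with vehicle and at 1.1, 0.93, 2.07, 1.48 and 1.58 with Scriptaid. Here Scriptaid array 3 lay above the lowest vehicle array, and vehicle arrays 1 and 2 were the highest of all. Without those 2 arrays the difference went from -0.92 to -0.67. In the right legs, where Cilp differed by -0.88 ± 0.37, vehicle arrays 1 and 2 were again the highest, at 3.23 and 3.17. The right-leg difference without both of them was not calculated. Hunk, a kinase, differed by -0.67 ± 0.17 in the left and -1.03 ± 0.31 in the right legs.

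The other lower genes had a right-leg difference with an unadjusted p above 0.05, except Myh3. Il17re, a subunit of an interleukin receptor, had the largest left-leg difference of the 12, -1.30 ± 0.30, and a right-leg difference of -0.08 ± 0.27. Srd5a1, the reductase that converts testosterone to dihydrotestosterone, gave -0.73 ± 0.18 and -0.24 ± 0.22, and C1qtnf2, a secreted relative of adiponectin, gave -0.88 ± 0.22 and -0.31 ± 0.37. Cep164, a centriole protein, gave -0.72 ± 0.17 and 0.02 ± 0.18, and its other probe gave 0.23 in the left legs, so its 2 probes disagree. Dpysl3 gave -0.66 ± 0.17 in the left legs, -0.41 there without vehicle arrays 1 and 2, and -0.67 ± 0.34 in the right legs. Ankrd35 gave -0.54 ± 0.14 and -0.22 ± 0.22, and Itih2, which binds hyaluronan, -0.48 ± 0.12 and -0.24 ± 0.31. Myh3, the embryonic myosin heavy chain that regenerating fibres express, was at -0.42, -0.91, -0.98, -1.25 and -0.78 with vehicle and at -1.88, -1.45, -1.45, -1.19 and -1.64 with Scriptaid. Its difference was -0.66 ± 0.17 in the left legs and 1.09 ± 0.31 in the right legs. The test of the difference between the legs gave an unadjusted p of 0.00014 and an adjusted p of 0.9996 in limma, so it did not pass (0% of genes did in that test, and 2.12% had an unadjusted p under 0.05), and the left-leg value that entered it had been picked for being low.

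**Figure D2:**
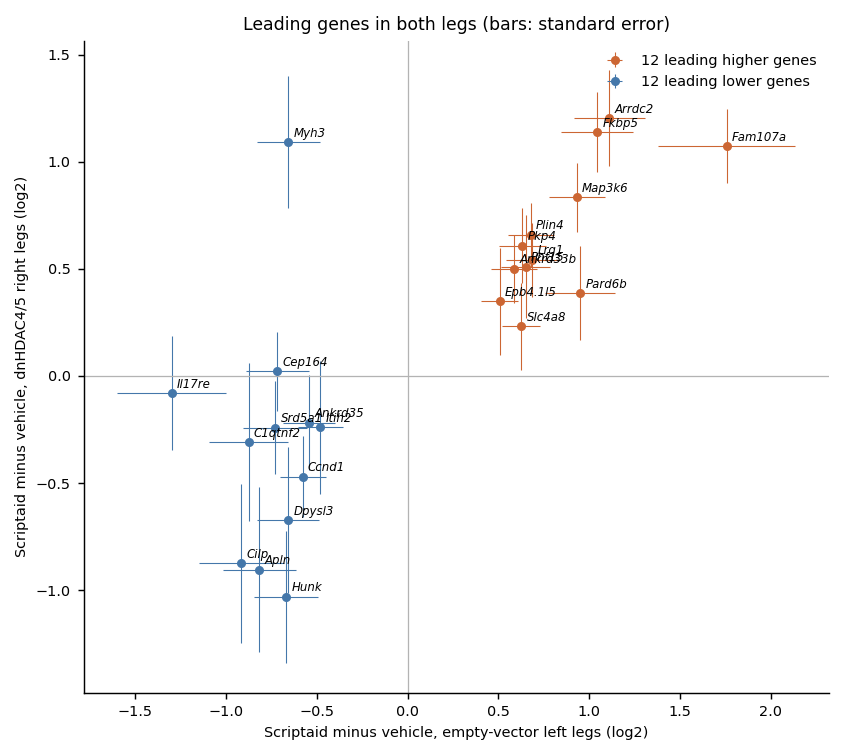
Scriptaid minus vehicle (log2) in the empty-vector left legs (x axis) and the dnHDAC4/5 right legs of the same animals (y axis) for the same 24 genes, with standard errors from limma as bars. All 12 higher genes lie above 0 in the right legs, 10 of the 12 lower genes lie below 0, and Myh3 lies at -0.66 and 1.09; the left values chose the genes.

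Beyond these genes, 38 lists of genes were described by the members measured, with no test of a list. Of the 551 distinct members that were tested, 22 (3.99%) were higher and 15 (2.72%) lower at an unadjusted p under 0.05, against 2.43% and 2.14% of all genes, and none passed adjustment. In the following, "under 0.05" means the unadjusted p. The shares of all genes to set beside every list are 54.1% above 0, 2.43% higher and 2.14% lower under 0.05 in the left legs. In the right legs these shares are 58.6%, 3.95% and 1.83%.

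The glucocorticoid-responsive genes had the highest median of the 38 lists with all 10 arrays. Of 18 members 14 were tested, with a median difference of 0.45. Of these, 12 were above 0 and 8 higher under 0.05, against 54.1% and 2.43% of all genes, and none was lower under 0.05. The list and its members were chosen with earlier results of these data known, so its rank and counts are a description. For 4 members, all higher, the groups did not overlap, against 0.789% of all genes in that direction. In the right legs of the same animals the median was 0.53. There 13 of 13 were above 0, against 58.6% of all genes, and 5 were higher under 0.05, against 3.95%. Without vehicle array 1 the left median was 0.46, and without vehicle arrays 1 and 2 together it was 0.55. Fkbp5 and Arrdc2, given above, belong to this list. Of the other 4 members, Sgk1 was above background on only 3 arrays, Per1 had no usable interior spot, no probe carried the name Zbtb16, and Pdk4, a kinase that holds back glucose oxidation, had its spot left out on 5 arrays.

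Of the list's members, Mt2 had the largest difference, followed by Arrdc2, Mt1 and Fkbp5. Mt2 was at 3.16, 3.79, 3.08, 1.42 and 1.90 with vehicle and at 6.40, 4.53, 4.56, 4.11 and 3.24 with Scriptaid. Scriptaid array 1 was far above the rest and Scriptaid array 5 lay among the vehicle arrays, with a difference of 1.90 ± 0.60 (3.74-fold) in the left and 1.68 ± 0.59 in the right legs. Mt1 was at 3.14, 3.11, 3.51, 2.17 and 3.02 with vehicle and at 5.03, 3.81, 4.16, 3.83 and 3.55 with Scriptaid. All Scriptaid arrays were above all vehicle arrays, Scriptaid array 1 again being the highest, and the difference was 1.09 ± 0.31 (2.12-fold) in the left and 1.14 ± 0.31 in the right legs. A dimmer Mt1 probe gave 0.52. Their promoters are shown above, and the metal response core in them was also in promoters of other members of the list. Ddit4, a stress-induced inhibitor of the growth kinase mTOR, was at 3.37, 3.23, 3.03, 2.96 and 3.32 with vehicle and at 3.41, 4.35, 4.15, 3.52 and 4.34 with Scriptaid. Its groups did not overlap, though Scriptaid array 1 lay only just above the vehicle arrays, and the difference was 0.77 ± 0.20 in the left and 0.50 ± 0.24 in the right legs. The order of the Scriptaid arrays thus differed between genes of the list: array 1 was the highest for Mt1 and Mt2 and the lowest for Ddit4.

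Smaller differences were measured for Klf15 (0.52 ± 0.21, 4 arrays a group), Errfi1, an inhibitor of the epidermal growth factor receptor (0.38 ± 0.17), and Klf9, a transcription factor that glucocorticoids switch on in many tissues (0.36 ± 0.16). The p of each stayed under 0.05 without some single arrays and rose above it without others, with differences of 0.37, 0.26 and 0.33 at the largest p. Klf9 moved furthest without vehicle array 3, to 0.21, and its other probe gave 0.20. Of the members above 0.05, 2 were named after their values were seen: Nr3c1, the receptor itself (0.10), and Tsc22d3, a widely used marker of glucocorticoid action (0.26).

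**Figure D3:**
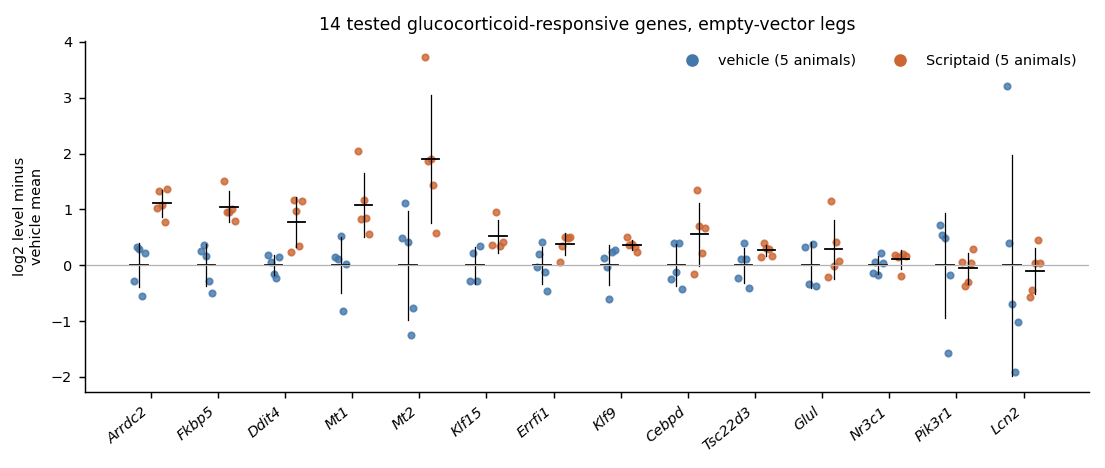
Level of the 14 tested glucocorticoid-responsive genes on each empty-vector array, as log2 minus the vehicle mean (y axis), ordered by p (x axis). Points are arrays, horizontal bars means and vertical bars SD; 12 of the 14 means are above vehicle, and the highest Scriptaid point of Mt1 and of Mt2 is the same array.

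Genes of muscle atrophy and autophagy, which break down muscle protein and organelles, had a median of 0.22 over 15 tested of 18. Of these, 13 were above 0 and 4 higher under 0.05, against 54.1% and 2.43% of all genes, and none was lower under 0.05. Without vehicle array 1 the median was 0.14, and in the right legs it was 0.17 with 10 of 13 above 0. Fbxo32, the ubiquitin ligase atrogin-1, was at 3.26, 3.17, 3.27, 3.54 and 3.38 with vehicle and at 3.82, 4.08, 3.63 and 3.83 on the 4 Scriptaid arrays with a usable spot. Its groups did not overlap, with 0.52 ± 0.12 in the left and 0.55 ± 0.23 in the right legs. Foxo1, the transcription factor that insulin keeps out of the nucleus, was at 2.11, 2.56, 2.24, 2.21 and 1.95 against 3.18, 2.72, 2.75, 2.87 and 2.54. Only its lowest Scriptaid array fell below the highest vehicle array, and the difference was 0.60 ± 0.15 in the left and 0.59 ± 0.18 in the right legs. Cebpb, a transcription factor of the same response, gave 0.51 ± 0.11 without overlap, and 0.44 ± 0.32 in the right legs. Trim63, the other muscle ubiquitin ligase, gave 0.70 ± 0.39, and without Scriptaid array 3, its highest, 0.37. The 29 proteasome subunits tested of 31 had a median of 0.01, with 0 under 0.05. Klf15 is counted in this list as well.

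The exercise list, of MEF2 factors and regulators that respond to exercise, had a median of 0.20 over 19 tested of 22. Of these 18 were above 0 and 3 higher under 0.05, against 54.1% and 2.43% of all genes. The right legs gave 0.19 with 15 of 18 above 0, against 58.6% of all genes. Ppara, the nuclear receptor of fatty acid oxidation, was at 1.80, 1.80, 1.93, 1.29 and 1.77 with vehicle and at 2.81, 2.01, 2.69, 2.32 and 2.29 with Scriptaid. Its groups did not overlap, and the difference was 0.71 ± 0.18 (1.63-fold) in the left and 0.83 ± 0.26 in the right legs. Ppargc1a, the coactivator PGC-1α that drives mitochondrial genes, was at 2.49, 2.89, 2.76, 2.97 and 2.79 against 3.22, 3.03, 3.51, 2.88 and 2.99. Its groups overlapped in Scriptaid array 4, with 0.35 ± 0.14 in the left and 0.56 ± 0.17 in the right legs, and without Scriptaid array 3 the left difference was 0.25 and no longer under 0.05. Vegfa, the growth factor of blood vessels, gave 0.36 ± 0.14, and 0.20 without vehicle arrays 1 and 2, while 3 other probes gave 0.19, 0.19 and 0.30. Nr4a1, an exercise-induced nuclear receptor, was at 0.34 ± 0.16 in the left and 0.58 ± 0.24 in the right legs, with 2 saturated Scriptaid arrays and a left-leg difference of 0.17 without vehicle arrays 1 and 2. Nr4a3 was too dim to test.

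Of the 5 lists of fuel use, those of fatty acids and branched-chain amino acids had medians above 0 and the other 3 had medians just below 0. Fatty acid uptake and oxidation had a median of 0.19 over 25 tested of 30, with 22 above 0 but 0 under 0.05, and 0.22 in the right legs; without vehicle arrays 1 and 2 the left median was 0.09, and without vehicle array 5 it was 0.30. Its member Acadvl, the first dehydrogenase of long-chain fatty acids, gave 0.46 ± 0.21, and 0.23 without vehicle arrays 1 and 2. Cpt1b, a carnitine palmitoyltransferase of the mitochondrial membrane, gave 0.12 ± 0.14. Branched-chain amino acid breakdown had a median of 0.17 over 17 of 19, with 16 above 0 and 1 under 0.05, with 0.11 without vehicle array 1 and 0.02 without vehicle arrays 1 and 2. That 1 member was Mccc2, a subunit of a leucine-breakdown carboxylase, which was at -1.34, -1.08, -1.79, -0.97 and -4.59 with vehicle and at -0.28, -0.72, -0.76, -0.74 and -0.54 with Scriptaid. Vehicle array 5 was far below the rest, and without it the difference of 1.34 ± 0.60 became 0.68. Its other probe gave 0.23. The tricarboxylic acid cycle and oxidative phosphorylation (31 of 44 tested) had a median of -0.02 and glycolysis (16 of 18) one of -0.01, each with 0 under 0.05. Lipid and sterol synthesis (21 of 22) had a median of -0.01, with Lpin1, a phosphatase of glyceride synthesis, at 0.39 ± 0.18 at 0.28 without vehicle array 1 and at 0.22 without vehicle arrays 1 and 2.

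Genes of glucose uptake, insulin signalling and glycogen had a median of 0.12 over 22 tested of 24, and of -0.01 without vehicle arrays 1 and 2. Ppp1r3c, which brings a phosphatase to glycogen, was at 4.22, 5.34, 5.25, 4.88 and 4.10 with vehicle and at 5.76, 6.09, 5.47, 5.50 and 5.62 with Scriptaid. The groups did not overlap, with 0.93 ± 0.26 (1.91-fold) in the left and 0.91 ± 0.25 in the right legs. Irs1, the adaptor of the insulin receptor, was at 4.18, 4.59, 5.06, 5.16 and 4.44 with vehicle and at 3.87, 4.36, 4.07, 4.35 and 4.07 with Scriptaid. It was lower on all 5 slides, by -0.54 ± 0.20, while the right legs gave -0.22 ± 0.29 and its other probe -0.14 in the left legs. Hk2, the hexokinase that exercise raises, gave 1.12 ± 0.83, a value set by vehicle array 5 at 0.71 where the other vehicle arrays were at 5.07 to 5.61, and without that array it was 0.17. Slc2a4, the glucose carrier GLUT4, was saturated on 4 arrays of each group, so no fold is given.

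The lists of the enzymes that Scriptaid targets and of chromatin genes had medians from -0.06 to 0.07, though single members differed by more. Of the 11 classical HDACs 9 were tested, with a median of -0.04, 2 above 0, and 0 under 0.05. The class I enzymes Hdac1, Hdac3 and Hdac8 gave -0.20 ± 0.12, -0.21 ± 0.26 and 0.23 ± 0.14. The class IIa enzymes Hdac4, Hdac5, Hdac7 and Hdac9 gave -0.01 ± 0.17, 0.27 ± 0.17, -0.02 ± 0.20 and -0.23 ± 0.16, and the class IIb enzymes Hdac6 and Hdac10 gave -0.16 ± 0.17 and -0.04 ± 0.24. A second Hdac9 probe gave 0.28, the opposite sign, and a second Hdac8 probe -0.01. Single arrays moved several of these values: Hdac5 was at 0.10 without vehicle array 4, Hdac6 at 0.01 without Scriptaid array 1, Hdac3 at -0.04 without Scriptaid array 3, Hdac8 at 0.12 without vehicle array 3, Hdac9 at -0.14 without vehicle array 2, and Hdac1 at -0.13 without Scriptaid array 2. The 95% interval of Hdac4 ran from -0.38 to 0.37. Hdac2 was not well above background on any array, and Hdac11 had no usable interior spot. Acetyltransferases, acetyl readers and corepressors (16 of 20 tested) had a median of 0.07, with members from -0.08 to 1.12. Only the acetyltransferase Myst3, now Kat6a, was under 0.05, at 0.57 ± 0.23. Histone genes (19 of 24) had a median of -0.03 and 0 under 0.05, with members from -0.99 to 0.27. For 1 of them, lower with Scriptaid, the groups did not overlap, against 0.33% of all genes in that direction. The 10 genes known to rise under HDAC inhibitors in cultured cells were all tested and had a median of -0.06, with 5 above 0. Among them Mt1 was higher, Clu, a secreted chaperone, was lower (-0.81 ± 0.35), and the usual markers H1f0 and Cdkn1a gave 0.13 ± 0.15 and -0.15 ± 0.23, which became 0.02 without vehicle array 3 and -0.01 without Scriptaid array 3.

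**Figure D4:**
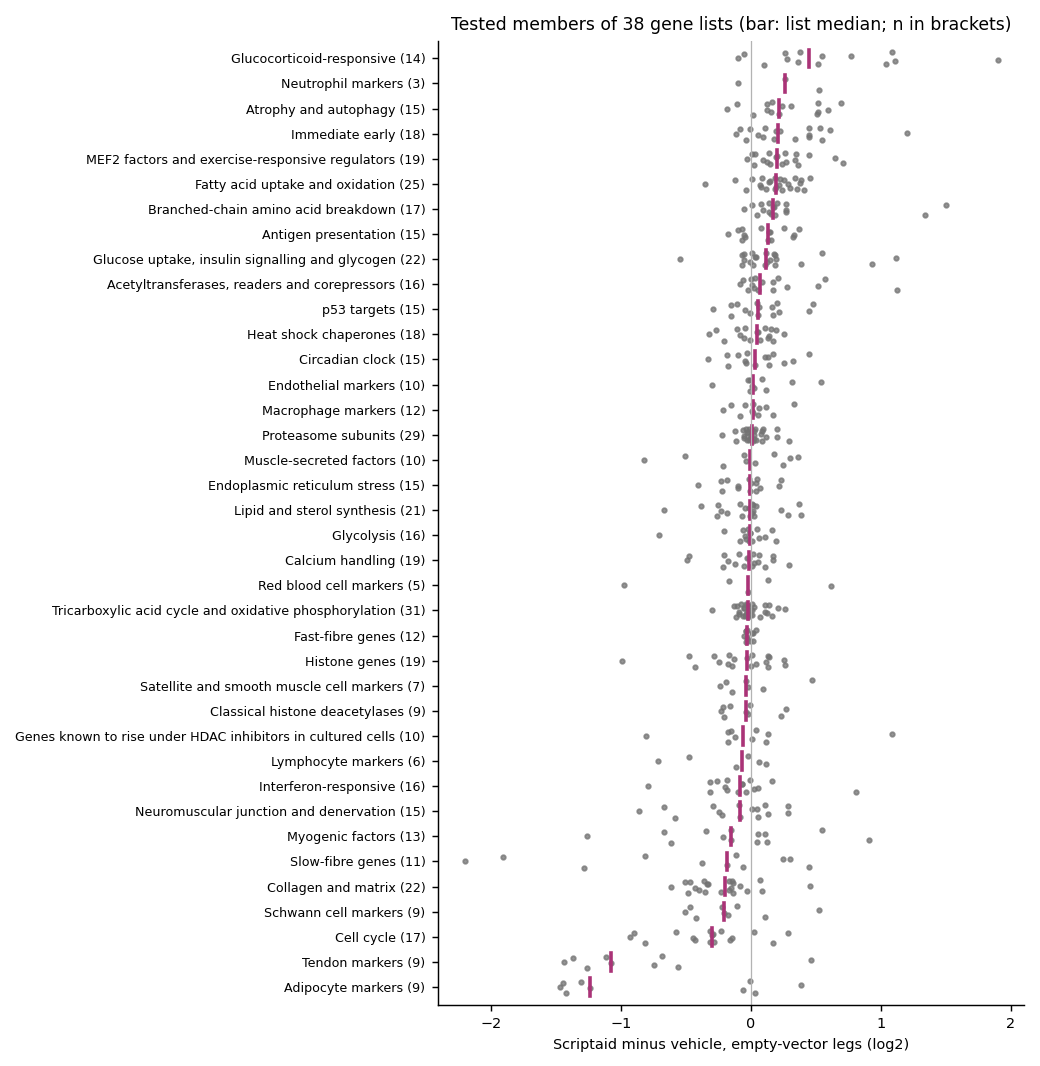
Scriptaid minus vehicle in the empty-vector legs (x axis, log2) for each tested member (grey points) of the 38 gene lists (y axis, ordered by median, n tested in brackets), with the list median as a bar. The medians run from -1.24 (adipocyte markers) to 0.45 (glucocorticoid-responsive genes), and most lie near the all-gene median of 0.02.

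Immediate early genes, which are transcribed within minutes of a stimulus, had a median of 0.21 over 18 tested of 22. Of these, 14 were above 0 and only Maff was under 0.05 (0.45 ± 0.19). In the right legs the median was 0.43, with 18 of 18 above 0, against 58.6% of all genes. There 5 were higher under 0.05, against 3.95% of all genes. The left median was 0.08 without Scriptaid array 3 and 0.34 without Scriptaid array 1, and Maff was at 0.73 without vehicle arrays 1 and 2. Fos was at -1.26, -0.25, -1.25, -1.64 and -1.80 with vehicle and at -1.54, -0.62, 1.49, -1.12 and -1.35 with Scriptaid. Only Scriptaid array 3 was high, and without it the difference of 0.61 ± 0.54 became 0.08; in the right legs it was 1.64 ± 0.70. Myc gave 0.00 ± 0.19. Medians near 0 in the left legs were found for the circadian clock (0.03, 15 of 19), where Nfil3 gave 0.45 ± 0.22, for heat shock chaperones (0.05, 18 of 19), for endoplasmic reticulum stress (0.00, 15 of 20) and for p53 targets (0.05, 15 of 19, with Btg2 at 0.45 ± 0.24, and at 0.23 without Scriptaid array 3). None of these 4 lists had a member under 0.05 in the left legs. In the right legs the p53 targets had a median of 0.28, with 11 of 14 above 0 and 4 higher under 0.05, against 58.6% and 3.95% of all genes.

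Among the muscle lists, fast-fibre genes (12 of 15 tested) had a median of -0.03, with all members between -0.05 and 0.04 and several of them saturated, and calcium handling (19 of 21) had one of -0.01; neither had a member under 0.05. Slow-fibre genes (11 of 13) had a median of -0.18, with 3 above 0 and only Myl2 under 0.05; it was -0.15 without vehicle arrays 1 and 2, and -0.12 without vehicle array 5. In the right legs the median was 0.22, with 7 of 11 above 0. Myh7, the slow myosin heavy chain, was at 5.56, 5.82, 3.30, -0.35 and 0.71 with vehicle and at -0.02, 0.47, 0.23, 3.86 and 0.96 with Scriptaid. Vehicle arrays 1 and 2 were the highest of all, and without them its difference went from -1.91 ± 1.25 to -0.12. Myl2, the slow light chain, went from -2.20 ± 0.96 to -0.68 in the same way. Whether these arrays hold more slow muscle was not tested. Myogenic factors (13 of 17) had a median of -0.15, 0.05 where only probes above background on all arrays were used, and -0.04 without Scriptaid array 2. In that list Id1, an inhibitor of differentiation, gave 0.55 ± 0.15 in the left and 0.40 ± 0.21 in the right legs, and Ankrd1, a stretch-responsive protein of the sarcomere, -1.26 ± 0.38 and -0.75 ± 0.62. Neuromuscular junction and denervation genes (15 of 18) had a median of -0.08. Its member Rapsn, which clusters acetylcholine receptors, gave 0.28 ± 0.11. Muscle-secreted factors (10 of 14) had a median of 0.00, with Igf1, a growth factor, at -0.51 ± 0.17 beside Apln and Vegfa. The other 3 Igf1 probes gave -0.33, -0.43 and -1.17, the last above background on only 5 arrays.

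Cell cycle genes had a median of -0.30 over 17 tested of 22, with 14 below 0 and 2 under 0.05, both cyclins of the first gap phase. Ccnd2 gave -0.43 ± 0.18 in the left and -0.65 ± 0.27 in the right legs, beside Ccnd1 above. The list's median was -0.13 without vehicle array 1 and 0.21 in the right legs, where 12 of 17 members were above 0. Collagen and matrix genes had a median of -0.20 over 22 of 23, with 19 below 0 and 0 under 0.05, and -0.22 in the right legs with 1 of 21 above 0. Without single arrays it ran from -0.36 (without vehicle array 4) to -0.11 (without vehicle array 1). Sparc, a collagen-binding protein, gave -0.47 ± 0.21.

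Tendon markers had a negative median in both legs, and 2 vehicle arrays were far above the rest. Of 10 markers 9 were tested, 8 were below 0, and 5 were lower under 0.05, against 2.14% of all genes. The median was -1.07, and in the right legs it was -1.31 with 0 of 9 above 0, against 58.6% of all genes. The 7 markers measured on all arrays summed to 43.2 and 46.2 times the 75th percentile on vehicle arrays 1 and 2, to 9.80 to 17.7 on the other 3 vehicle arrays, and to 6.96 to 15.8 on the Scriptaid arrays. Without vehicle arrays 1 and 2 the left-leg median was -0.44, and the right-leg median without these 2 animals was not calculated. Tnmd, a membrane protein of tendon cells, was at 1.41, 1.42, 0.38, 0.39 and -0.38 with vehicle and at -1.33, -0.03, -0.60, -0.60 and 0.22 with Scriptaid. Its difference was -1.11 ± 0.39, -0.60 without the 2 arrays, and -1.49 ± 0.58 in the right legs. Scx, the transcription factor of tendon cells, gave -0.75 ± 0.22, -0.44 without the 2 arrays, and -0.29 ± 0.41 in the right legs. Thbs4, a matrix protein of tendon and of the junction with muscle, was at 5.40 to 6.15 on 4 vehicle arrays and at 4.53 to 5.35 on the Scriptaid arrays, which do not overlap. Its difference was -0.68 ± 0.20, -0.44 without the 2 arrays, and -0.72 ± 0.30 in the right legs. Mkx and Cilp2, the other 2, gave -1.43 ± 0.61 and -1.37 ± 0.61, and -0.71 and -0.47 without the 2 arrays. The highest values of Tnmd, Scx and Cilp were all on vehicle arrays 1 and 2, and the part of attached tendon in these values was not tested.

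**Figure D5:**
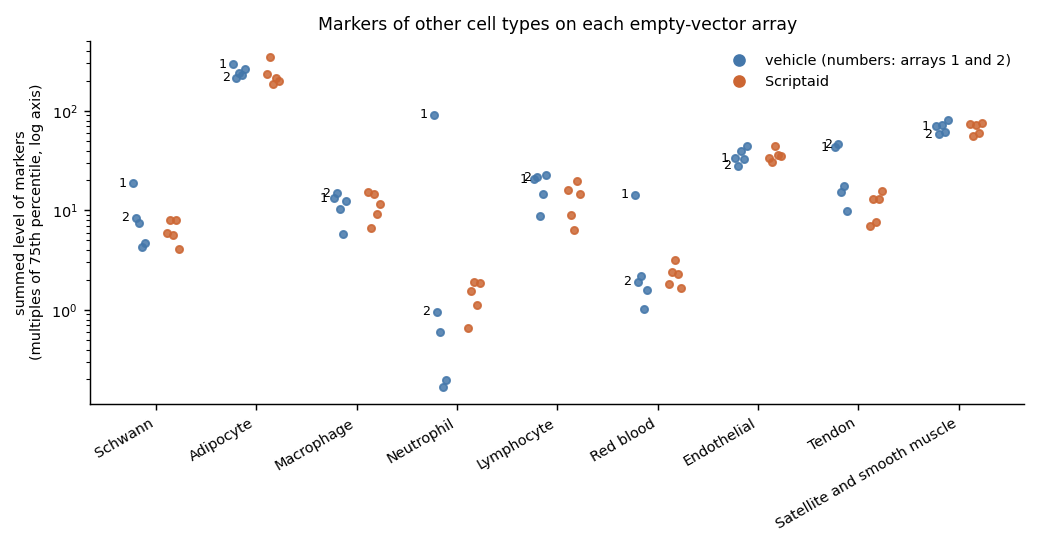
Summed level of the markers measured on all 10 arrays (y axis, multiples of the array's 75th percentile, log axis) for 9 lists of other cell types (x axis), 1 point per empty-vector array, with vehicle arrays 1 and 2 numbered. Vehicle array 1 is at 91.6 for neutrophil markers where the other vehicle arrays reach 0.96, and vehicle arrays 1 and 2 are at 43.2 and 46.2 for tendon markers where the others reach 17.7.

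Of the other cell types, adipocyte markers had a median of -1.24 over 9 tested of 12, with 0 under 0.05, -2.11 without Scriptaid array 2 and -0.13 without vehicle arrays 1 and 2; in the right legs the median was 0.85. Plin1, the lipid droplet coat of fat cells, was at -0.07, -1.26, -3.60, -3.50 and -4.02 with vehicle and at -4.87, -0.61, -5.63, -3.12 and -5.57 with Scriptaid, with high arrays in both groups and only 2 of the 5 Scriptaid arrays above background. Their summed level, 53.4% of it from Car3, which muscle fibres also express, was 215 to 295 and 185 to 346, and Adig was not above background on any array. Schwann cell markers (9 of 12) had a median of -0.21, and -0.04 without vehicle array 1, but 0.56 in the right legs with 9 of 9 above 0, with Sox10 not above background on any array and the sum at 4.32 to 18.9 against 4.11 to 8.07. Neutrophil markers (3 of 10) had a median of 0.26, with 1.87 without vehicle array 1 and -0.42 without vehicle array 4. S100a8, a calcium-binding protein of neutrophils, was at 4.04, -2.56, -3.40, -5.43 and -5.81 with vehicle and at -3.20, -1.78, -1.52, -2.52 and -1.53 with Scriptaid. Without vehicle array 1 all Scriptaid arrays but 1 were above all vehicle arrays and the difference went from 0.52 ± 1.58 to 2.19, while the right legs gave 1.76 ± 0.78. The S100a8 probe was above background on only 8 left-leg arrays, so its lowest values and the size of these left-leg differences are uncertain. Red blood cell markers (5 of 10) had a median of -0.02, with 0.38 without vehicle array 1 and -0.34 without vehicle array 4, and 1.12 in the right legs with 4 of 4 above 0. They had a sum of 1.02 to 14.4 against 1.68 to 3.14.

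Medians near 0 in the left legs were found for macrophage markers (0.02, 12 of 18; sums of 5.79 to 14.8 and 6.6 to 15.3), endothelial markers (0.02, 10 of 12; sums of 28.1 to 44.3 and 30.5 to 44.5), lymphocyte markers (-0.07, 6 of 14; sums of 8.88 to 22.6 and 6.42 to 19.6, with Cd3g, Cd8a and Cd79a not above background on any array) and satellite and smooth muscle cell markers (-0.03, 7 of 8; sums of 58.0 to 81.5 and 56.4 to 75.4). None of these 4 lists had a member under 0.05 in the left legs. Des gave 87.5% of the satellite and smooth muscle sum and Ighm 94.3% of the lymphocyte sum, so each of these sums mostly follows 1 gene. Interferon-responsive genes (16 of 20) had a median of -0.08 with Ifi44 at -0.79 ± 0.35, and at -0.43 without Scriptaid array 5. Antigen presentation genes (15 of 16) had a median of 0.13 with 0 under 0.05, which turned to -0.13 without Scriptaid array 5 and to -0.03 without vehicle array 4. Hbb-b1, a haemoglobin chain, gave 0.62 ± 0.24 on 3 arrays a group, and 0.36 without vehicle array 4, while its 2 probes that were above background on more arrays gave 0.01 and -0.01.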

How the data were processed

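Per the labels' protocols, 100 ng of total RNA from each muscle was labelled with Cy3 for 1 one-colour array. Per the file headers, the scanner images were read with Agilent Feature Extraction 9.5.1.1, and the deposited files of all 20 arrays give each spot's processed intensity, after background subtraction and detrending over the surface. The deposited series matrix holds a ratio for 23678 probes, which the values show to be that intensity divided by 1 constant per array; the authors' way of setting that constant is not given in the sources used here. It served as an alternative.

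From 45018 spots an array, interior spots (columns 1 to 77, rows 11 to 522) were used, because the Scriptaid arrays of the right legs have low spots at the edge. Spots marked as non-uniform or as outliers were left out, log2 intensity was scaled by the 75th percentile, and replicate spots of one probe were averaged. Probes stayed in when above background on at least 5 of the 10 left-leg arrays with at least 3 arrays a group, and the brightest probe stood for its gene. Gene names are those of the files, with current names from a GRCm38.p6 gene table for 27686 of 41174 probes matched by accession.

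limma 3.58.1 (R 4.3.3) fitted the 2 group means, two-sided, with Benjamini-Hochberg adjustment over all genes; all p of single genes are from limma. The test was checked on simulated data. Replicate numbers mark slides, per the file headers, so the slide pairs same-numbered arrays of the 2 groups, though the animals differ. Deviations of same-numbered arrays correlated at 0.134 to 0.284. Differently numbered pairs reached 0.349 for replicate 4 (same number 0.207) and 0.136 for replicate 5 (same number 0.134). For the other replicates the same-numbered pair had the higher correlation. Each group always has the same position on a slide, so position and group cannot be told apart. The smallest p that an exact permutation of 5 against 5 can give is 0.00794.

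The genes named are the 12 of smallest p in each direction that were above background on every array of the higher group (6 clone or locus names passed over), the members of each list under an unadjusted p of 0.05 or of smallest p, and a set of genes named whatever their values, among them the HDACs. The members and lists were chosen with earlier results of these data known. One gene that this rule picks is not reported here, and all counts and medians include it. Alternatives were other scalings, background corrections, filters, probe rules, fits and left-out arrays, and the closing section gives their effect.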

Additional observations from a re-analysis of the deposited data

Results flagged for a closer look

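In groups of 4 or 5 arrays, 1 array stood far from the rest by Dixon's test in 17 of 208 groups tested (8.17%), where chance alone gives about 1 in 20. Vehicle array 5 accounted for 6 of the 17. It was lowest for Hk2 (0.714, the others 5.07 to 5.61), Mccc2 (-4.59, the others -1.79 to -0.97) and Hdac10 (0.243, the others 0.992 to 1.16). It was highest for Plin4 (5.83, the others 5.46 to 5.53) and Pfkfb3, a regulator of glycolysis (5.23, the others 3.91 to 4.13), and in its share of low interior spots (0.932%, the others 0.016% to 0.058%). Vehicle array 1 was highest in the summed markers of neutrophils (91.6, the others 0.168 to 0.958), red blood cells (14.4, the others 1.02 to 2.18) and Schwann cells (18.9, the others 4.32 to 8.46). Vehicle array 4 was lowest for Ppara (1.29, the others 1.77 to 1.93) and Hdac5 (2.67, the others 3.35 to 3.39).

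On the Scriptaid arrays, Myh7 was highest on array 4 (3.86, the others -0.02 to 0.96) and Klf15 highest on array 2 (4.00, the others 3.38 to 3.45). Ifi44 and Hdac10 were lowest on array 5 (-5.01, the others -3.33 to -2.96, and 0.0485, the others 0.964 to 1.20). Hdac6 was lowest on array 1 (-0.963, the others -0.172 to -0.0609) and Hdac9 on array 3 (-2.78, the others -2.59 to -2.55).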

How the results depend on the processing

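No gene had an adjusted p under 0.05 in any of the 24 alternatives, where the smallest adjusted p ran from 0.118 (all 20 arrays in 1 fit) to 0.9997. The count at an unadjusted p under 0.05, 637 here, was 1095 of 25058 genes without a filter on dim probes, 6.18% of genes with the replicate block (slide, where 0 genes passed as well), and 445 to 899 with single arrays left out; the block changed no call. No scaling moved the median of all genes by more than 0.06. Of the 12 leading lower genes, 4 had an unadjusted p under 0.05 in the right legs, 2 with the authors' deposited table, and 1 to 5 without single arrays. The leading higher genes stayed above 0 in the right legs in all 12 cases in each of the 19 alternatives run there, with 7 to 10 under 0.05. Hbb-b1 turned from 0.62 to -0.013 where probes had to be above background on all arrays, because another probe then stood for it. Of the list medians under alternatives, 9 moved by more than the SD of the list's medians over slides and 902 did not, and the cause was not tested. That SD is wide for some lists, so the 902 do not show that medians were stable. Adipocyte markers, with slide medians from -3.90 to 0.65, are counted as not moved at -0.13 without vehicle arrays 1 and 2, against -1.24 with all arrays. With 5 animals a group, the number of arrays limits the precision, and a probe saturated or not above background on all arrays of a group has only a bound.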
